A study of Mus musculus with 15 samples.

Results

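Purine nucleosides and bases that enter an enterocyte, or that are freed inside it, are either returned to the nucleotide pool or broken down to urate, and nucleotides outside the cell are first hydrolysed at its surface. The 8 enzyme genes described here, Ada, Adk, Pnp, Gda, Xdh, Hprt, Aprt and Enpp3, act at these steps. They were named for these roles, with earlier results of these data known, and were taken by gene symbol from the 17752 genes listed for the ileum of any of 15 mice, and all 8 passed the filter on low counts that left 14386 genes for testing. The mice were female C57BL/6 aged 8 weeks by their labels, of the substrain C57BL/6JOlaHsd by the study's methods, and every animal was gavaged. In the 3 groups of 5, the control mice received water, and the others received a proanthocyanidin (PAC) preparation from grape, a condensed tannin built of flavan-3-ol units, of low or of high molecular weight. These groups are called water, low PAC and high PAC. The dose of either PAC was 200 mg/kg, given every 2 days for 10 days. In the study's methods the PAC preparation of larger polymer size given to mice is named medium mDP, where mDP is the mean degree of polymerization, and high PAC was taken to be this fraction. Each mouse gave 1 piece of tissue that held epithelium, muscle and lymphoid cells together, so fewer cells of a type and less RNA per cell cannot be told apart.

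In textbook purine metabolism, adenosine deaminase (Ada) converts adenosine to inosine, whereas adenosine kinase (Adk) phosphorylates adenosine back to AMP. Purine nucleoside phosphorylase (Pnp) releases hypoxanthine and guanine from their nucleosides. Guanine deaminase (Gda) turns guanine into xanthine, and xanthine dehydrogenase (Xdh) oxidizes hypoxanthine and xanthine to urate. Hprt and Aprt rescue the bases hypoxanthine, guanine and adenine as nucleotides. Enpp3 is an enzyme of the cell surface that hydrolyses nucleotides outside the cell and is a known marker of basophils. In the mouse, Ada is known for high expression in the upper small intestine and Xdh for its place in the intestinal epithelium.

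The libraries held between 15963086 and 17903886 expected counts per mouse. The expected count is the estimated number of read pairs of a gene, and FPKM is this quantity scaled to transcript length and to library size, so that levels of different genes can be set side by side. The tissue label was checked against 6 ileal markers. Fabp6, the ileal bile acid-binding protein, lay between 4196.07 and 10619.91 FPKM, and the 6 markers summed to between 5251 and 11840 FPKM per mouse. Gata4, a transcription factor of the upper small intestine, was not at 0 in any mouse and reached 12.67 FPKM with water, 6.23 with low PAC and 4.23 with high PAC. High PAC replicate 3 stood apart, with the lowest sum of 6 enterocyte markers (2515 FPKM against 4943 to 7042 in the other mice). This mouse had an erythrocyte marker sum of 182.9 FPKM against 30.8 to 83.9 in the others. Its removal is given beside several of the results below.

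The regions upstream of 4 members are shown because their expression bears most on the results. Adk and Hprt varied together most closely across mice, Gda varied with Xdh, and Ada had the lowest p of the members against water. The sequences come from RefSeq (GRCm38.p6), which matched 7 of the 8 members and has no entry used here for Xdh. Each runs from 250 bases before to 50 bases after a transcription start. Capitals mark matches to AGATAA or TGATAA on either strand, the letters of a GATA factor motif. The windows are chr14:21052324-21052623 for Adk (plus strand, the first of its 2 starts), chrX:52987828-52988127 for Hprt (plus), chr19:21472612-21472911 for Gda (minus) and chr2:163750190-163750489 for Ada (minus).
Adk: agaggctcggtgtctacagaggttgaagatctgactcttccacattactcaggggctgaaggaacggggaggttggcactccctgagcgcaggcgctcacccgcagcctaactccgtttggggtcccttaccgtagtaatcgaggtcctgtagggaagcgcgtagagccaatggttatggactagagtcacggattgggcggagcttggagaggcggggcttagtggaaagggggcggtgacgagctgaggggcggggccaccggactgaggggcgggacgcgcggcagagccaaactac
Hprt: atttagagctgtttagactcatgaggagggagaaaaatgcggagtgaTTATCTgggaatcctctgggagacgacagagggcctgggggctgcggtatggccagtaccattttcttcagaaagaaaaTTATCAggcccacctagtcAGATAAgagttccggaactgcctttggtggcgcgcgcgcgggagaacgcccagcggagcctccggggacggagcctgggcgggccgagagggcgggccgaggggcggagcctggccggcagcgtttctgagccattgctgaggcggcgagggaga
Gda: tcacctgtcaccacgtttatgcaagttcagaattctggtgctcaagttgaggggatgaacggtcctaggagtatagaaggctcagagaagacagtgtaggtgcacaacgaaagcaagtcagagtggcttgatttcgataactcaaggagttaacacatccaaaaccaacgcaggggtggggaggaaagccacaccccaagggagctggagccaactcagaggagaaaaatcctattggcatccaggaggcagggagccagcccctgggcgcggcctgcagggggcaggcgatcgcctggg
Ada: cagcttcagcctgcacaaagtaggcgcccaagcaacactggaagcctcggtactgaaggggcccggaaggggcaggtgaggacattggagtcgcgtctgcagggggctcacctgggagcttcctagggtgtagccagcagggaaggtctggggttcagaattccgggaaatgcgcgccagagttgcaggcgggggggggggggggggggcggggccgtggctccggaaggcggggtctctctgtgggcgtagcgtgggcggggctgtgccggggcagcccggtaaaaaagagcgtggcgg

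The Hprt window held 3 matches, starting 203, 124 and 105 bases before the start site, and the windows of the other 6 members with an entry, both starts of Adk included, held 0. Over 32851 promoters of this length, 18.6% held at least 1 match. A match is a string of letters only. The letters CAAAG, searched on both strands, occurred in the windows of Ada, Hprt, Aprt and the second start of Adk, and in 53.9% of all promoters. TTTAT occurred in those of Pnp, Gda and Enpp3, and in 40.0% of all promoters. The window of Ada was rich in G and C (68.0%, with 20 CG dinucleotides) and those of Adk (61.7%, 21) and Hprt (61.0%, 22) also lay above the median promoter (52.7%, 7). That of Enpp3 was poorer (40.7%, 5), and that of Gda lay near the median (55.0%, 9). The start sites of RefSeq and of the gene models below need not be the same.

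By mean FPKM over the 15 mice, Gda was the most abundant member at 118 ± 35.9 (SD, n = 15). It was followed by Pnp (76.5 ± 6.26), Aprt (75.5 ± 9.03), Xdh (66.7 ± 15.5), Hprt (66.0 ± 11.1), Adk (62.0 ± 8.33) and Ada (57.6 ± 20.3). Enpp3 was the least abundant (7.92 ± 2.88). Gda exceeded Pnp in 14 of 15 mice and Ada exceeded Enpp3 in all 15, whereas Pnp exceeded Aprt in 8, Xdh exceeded Hprt in 9, and Aprt exceeded Xdh and Adk exceeded Ada in 10 each. The order of Pnp, Aprt and Xdh, and of Adk and Ada, thus did not hold from mouse to mouse, although Hprt lay above Adk in 14 of 15 by a small margin. Ada ranked 4 among the members by its mean in the water group and 7 in the high PAC group. Xdh ranked 3 and 6.

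**Figure D1:**
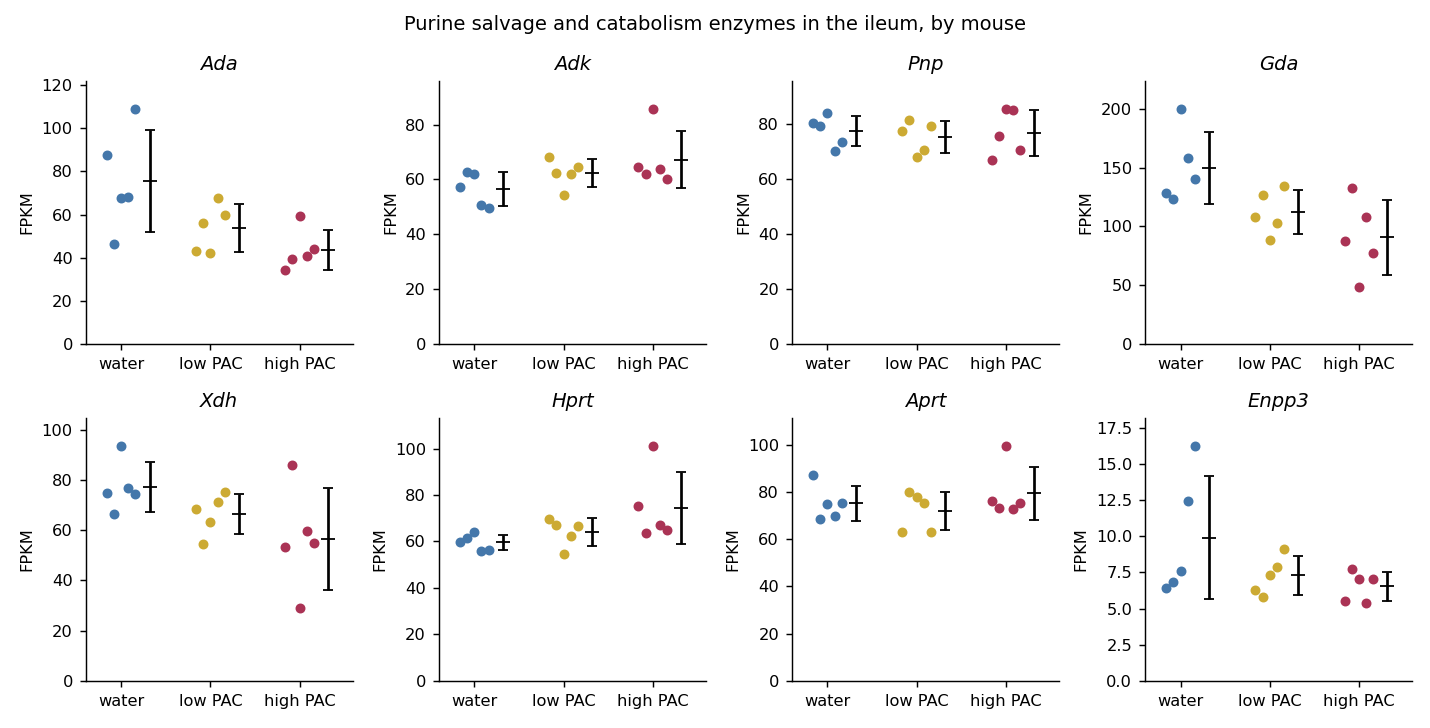
FPKM of the 8 members (vertical axes from 0) in each mouse, by group (points, in the order of replicates 1 to 5), with the mean and SD of 5 mice as the black bar. Ada, Gda and Xdh have 4 of 5 high PAC mice below the lowest water mouse and Hprt 4 of 5 above the highest, while Pnp and Aprt lie at like levels in the 3 groups.

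Ada (gene 11486, chr2:163726584-163750239, minus strand, 12 exons) was lower on average with either PAC. In replicates 1 to 5 it measured 87.7, 46.2, 67.5, 68.0 and 109 FPKM with water, 43.2, 56.3, 42.0, 67.6 and 59.6 with low PAC, and 34.6, 39.3, 59.2, 40.6 and 44.1 with high PAC. All 5 mice of either PAC group lay below the water median of 68.0 FPKM, and 4 high PAC mice and 2 low PAC mice lay below the lowest water mouse. The log2 fold change of high PAC against water was -0.89 (SE 0.20, 95% interval -1.32 to -0.46, adjusted p = 0.142 by edgeR), and the exact permutation test of log2(FPKM + 0.1) gave a two-sided p of 0.0159, where the smallest that 5 against 5 mice allow is 0.00794. Ada ranked 45 of 14386 genes by the edgeR p. DESeq2 called this difference (log2 fold change -0.87, adjusted p = 0.00481), and without high PAC replicate 3 it was -0.98 (adjusted p = 0.155, edgeR). For low PAC the log2 fold change was -0.54 (SE 0.20, 95% interval -0.97 to -0.12, adjusted p = 0.976, edgeR; exact permutation p = 0.0952).

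Adk (gene 11534, chr14:21052574-21448569, plus strand, 11 exons), the other enzyme that uses adenosine, had a higher mean with either PAC than with water. It measured 57.4, 62.7, 61.8, 50.7 and 49.7 FPKM with water, 68.0, 62.4, 54.2, 62.0 and 64.6 with low PAC, and 64.4, 62.0, 85.6, 64.0 and 60.2 with high PAC. All 5 high PAC mice lay above the water median and 3 above the highest water mouse. On the FPKM scale the exact permutation p was 0.0476, but on the log2 CPM scale with TMM scaling it was 0.278, and the edgeR log2 fold change was 0.15 (SE 0.10, 95% interval -0.06 to 0.37, adjusted p = 0.472), or 0.09 without high PAC replicate 3. The direction held under each scaling tried.

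The level of Ada relative to Adk within a mouse does not depend on the scaling of the libraries. This ratio, chosen after the values were seen and given without a test, was 1.53, 0.736, 1.09, 1.34 and 2.19 in the water mice. With low PAC it was 0.635, 0.902, 0.774, 1.09 and 0.923, and with high PAC 0.536, 0.634, 0.692, 0.635 and 0.732. All 5 high PAC mice and 1 low PAC mouse lay below the lowest water mouse, by a narrow margin for the highest high PAC mouse (0.732 against 0.736). Ada was the more abundant of the pair in 4 of 5 water mice, 1 of 5 low PAC mice and 0 of 5 high PAC mice.

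**Figure D2:**
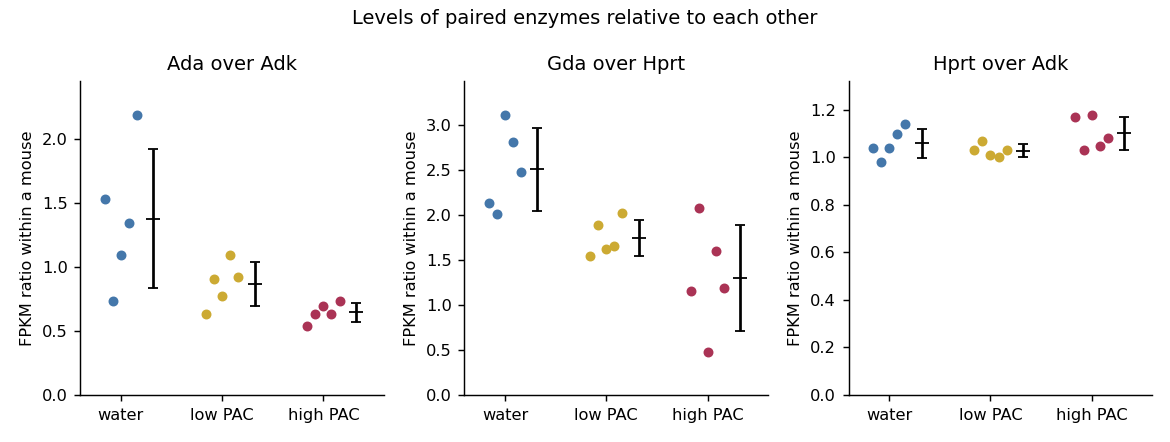
Ratio of the FPKM of 2 members within each mouse (vertical axes from 0), by group (points), with the mean and SD of 5 mice in black. The 5 high PAC mice lie between 0.536 and 0.732 for Ada over Adk, below every water mouse, while Hprt over Adk stays between 0.98 and 1.18 in all 15 mice.

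Pnp (gene 18950, chr14:50931082-50965237, plus strand, 6 exons), at the step that receives the inosine made by Ada, had nearly the same mean in the 3 groups. It was 77.4 ± 5.51 FPKM (SD, n = 5) with water, 75.4 ± 5.84 with low PAC and 76.7 ± 8.36 with high PAC, and the mice lay between 67.0 and 85.4 FPKM in all. The log2 fold change of high PAC against water was -0.11 (95% interval -0.31 to 0.09, adjusted p = 0.57, edgeR), and ranged from -0.16 without high PAC replicate 4 to -0.06 without high PAC replicate 1. Its value is uncertain because reads are shared with the near-identical paralog Pnp2. The expected counts of Pnp were not whole, whereas those of Pnp and Pnp2 summed to a whole number within 0.005 in 15 of 15 mice, and Pnp2 held 25.4% to 31.2% of the sum. The other 7 members had only whole counts.

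The catabolic enzymes Gda and Xdh were lower on average in both PAC groups. Gda (gene 14544, chr19:21391307-21473445, minus strand, 14 exons) measured 128, 123, 200, 158 and 140 FPKM with water, 108, 127, 88.7, 103 and 134 with low PAC, and 87.4, 132, 48.4, 108 and 77.6 with high PAC. All mice of both PAC groups lay below the water median of 140 FPKM, and 4 of 5 high PAC and 3 of 5 low PAC mice lay below the lowest water mouse. For high PAC the log2 fold change was -0.82 (SE 0.22, 95% interval -1.29 to -0.34, adjusted p = 0.19 by edgeR; exact permutation p = 0.0238). DESeq2 called it with an adjusted p of 0.0308. The edgeR value was -0.62 without high PAC replicate 3, the mouse with 48.4 FPKM (adjusted p = 0.306). For low PAC it was -0.48 (SE 0.22, adjusted p = 0.976, edgeR; exact permutation p = 0.0397).

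Xdh (gene 22436, chr17:73883895-73950196, minus strand, 36 exons) measured 74.8, 66.3, 93.5, 76.7 and 74.2 FPKM with water, 68.3, 54.4, 63.2, 71.0 and 75.3 with low PAC, and 53.2, 86.0, 29.1, 59.8 and 55.0 with high PAC. Thus 4 high PAC mice lay below every water mouse and replicate 2 lay among them. The log2 fold change of high PAC against water was -0.54 (SE 0.20, 95% interval -0.97 to -0.11, adjusted p = 0.268 by edgeR; exact permutation p = 0.0635), and it was -0.33 without high PAC replicate 3 and -0.75 without replicate 2. With TMM log2 CPM in place of FPKM the exact permutation p was 0.0476. For low PAC it was -0.28 (SE 0.20, 95% interval -0.71 to 0.16, adjusted p = 0.976 by edgeR). Xdh and Gda kept their direction in every alternative tried, for both PAC groups.

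Hprt and Aprt rescue bases that Gda and Xdh would otherwise degrade. Hprt (gene 15452, chrX:52988137-53021659, plus strand, 9 exons) measured 59.9, 61.5, 64.1, 56.0 and 56.5 FPKM with water, 69.9, 67.0, 54.7, 62.2 and 66.5 with low PAC, and 75.2, 63.6, 101, 67.3 and 65.0 with high PAC. Of the high PAC mice, 4 lay above the highest water mouse and the remaining one between water replicates 2 and 3. The FPKM gave an exact permutation p of 0.0159 and the TMM log2 CPM 0.111, and the edgeR log2 fold change was 0.22 (SE 0.11, 95% interval -0.01 to 0.45, adjusted p = 0.358) or 0.13 without high PAC replicate 3. Aprt (gene 11821, chr8:122574635-122576909, minus strand, 5 exons) lay between 68.7 and 87.4 FPKM with water, between 63.1 and 80.1 with low PAC and between 72.9 and 99.5 with high PAC, so the groups overlapped over most of their range. Its log2 fold change of high PAC against water was -0.02 (95% interval -0.25 to 0.21, adjusted p = 0.938, edgeR), or -0.07 without high PAC replicate 3, and its sign turned with the scaling.

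Within a mouse, the ratio of Gda to Hprt was 2.01 to 3.12 with water, 1.55 to 2.02 with low PAC and 0.479 to 2.08 with high PAC, and in each PAC group 4 of 5 mice lay below the lowest water mouse. High PAC replicate 3, at 0.479, had less Gda than Hprt. Xdh over Hprt was 1.08 to 1.46 with water and 0.288 to 1.35 with high PAC, also with 4 of 5 mice below. In the low PAC group it was 0.812 to 1.16, with 2 of 5 mice below. These ratios were likewise chosen after the values were seen and were not tested.

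Enpp3 (gene 209558, chr10:24772406-24842823, minus strand, 25 exons), the member that acts outside the cell, measured 6.41, 6.85, 7.63, 12.4 and 16.3 FPKM with water, 6.30, 5.77, 7.34, 7.90 and 9.14 with low PAC, and 5.52, 7.71, 7.02, 5.42 and 7.03 with high PAC. The water group was the widest, and only its replicates 4 and 5 exceeded 10 FPKM. The log2 fold change of high PAC against water was -0.68 (SE 0.22, 95% interval -1.15 to -0.22, adjusted p = 0.218 by edgeR), but the exact permutation p was 0.135 on FPKM and 0.0397 on TMM log2 CPM, and only 2 of 5 high PAC mice lay below every water mouse. Without water replicate 5 it was -0.46. For low PAC the value was -0.49 (SE 0.22, adjusted p = 0.976, edgeR), or -0.27 without that mouse. The sum of 6 mast cell and basophil markers lay between 0.9 and 14.26 FPKM with water, with the highest value in replicate 4, between 1.55 and 6.67 with low PAC, and between 0.54 and 2.71 with high PAC, where Fcer1a was at 0 in all 5 mice. Only Mcpt1 and Mcpt2, mast cell proteases, had enough counts to be tested, and both were lower with high PAC than with water (median log2 fold change -2.36) and than with low PAC (-1.98) at an unadjusted edgeR p under 0.05, with 0 at an adjusted one. Of all genes, 10.4% and 2.05% were lower at this unadjusted level in these comparisons. Water replicate 5, the mouse with the most Enpp3, had 2.67 FPKM of the mast cell and basophil markers. It also had the largest sum of markers of the upper small intestine (1154 FPKM). Water replicates 4 and 5 had the lowest sums of the ileal markers, 5531 and 5251 FPKM against 7625 to 11840 in the other mice. Across mice with group means subtracted, Enpp3 had a Pearson r of 0.597 with the upper small intestine sum (p = 0.0113, adjusted p = 0.18, permutation test). With the mast cell and basophil sum, r was 0.263 (p = 0.548, adjusted p = 0.717, permutation test). With the ileal sum, r was -0.663 (p = 0.0578, adjusted p = 0.316, permutation test). The part of these cells or of intestinal position in the Enpp3 level was not tested beyond these relations.

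In the edgeR test, 0 of the 8 members had an adjusted p under 0.05 in any of the 3 comparisons. Over all 14386 genes, this threshold was passed by 0.0139% with high PAC against water, by 0.0% with low PAC against water and by 0.0% with high against low PAC. At an unadjusted p under 0.05, 4 members (Ada, Gda, Xdh and Enpp3) were lower with high PAC than with water, beside 10.4% of all genes, and 0 were higher, beside 4.37%. With low PAC, 3 members (Ada, Gda and Enpp3) were lower, beside 2.21% of all genes, and 0 higher, beside 1.4%. This count was 1 with upper-quartile scaling, with limma on FPKM, and without water replicate 4, water replicate 5, low PAC replicate 1 or low PAC replicate 3, and 2 or 3 under the other alternatives. Between the PAC groups 0 members were lower, beside 2.05%, and 0 higher, beside 1.84%, but 2 were lower without high PAC replicate 2 (Xdh and Gda) and 1 without high PAC replicate 3 (Ada). For high PAC the split of all genes leaned on the scaling, with 628 higher and 1500 lower under TMM and 1505 higher and 816 lower under upper-quartile scaling. Under upper-quartile scaling the same number of members, 4, was lower at this level and 2 were higher. DESeq2 called 2 members with high PAC, Ada and Gda, among 136 genes in all, and 0 members in the other comparisons. No member had groups that did not overlap in FPKM, which 4.64%, 0.605% and 0.737% of all genes had in the comparisons of high PAC with water, low PAC with water and high with low PAC. The median log2 fold change over the 8 members was -0.32 with high PAC, -0.20 with low PAC and -0.10 between them, beside 0.0024, -0.0141 and 0.005 over all genes. Without each mouse in turn, the members' median ranged from -0.43 (without high PAC replicate 2) to -0.22 (without high PAC replicate 3) with high PAC, from -0.24 to -0.15 with low PAC, and from -0.14 (without high PAC replicate 2) to -0.05 (without high PAC replicate 1) between them. Both comparisons with water share the same 5 control mice.

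**Figure D3:**
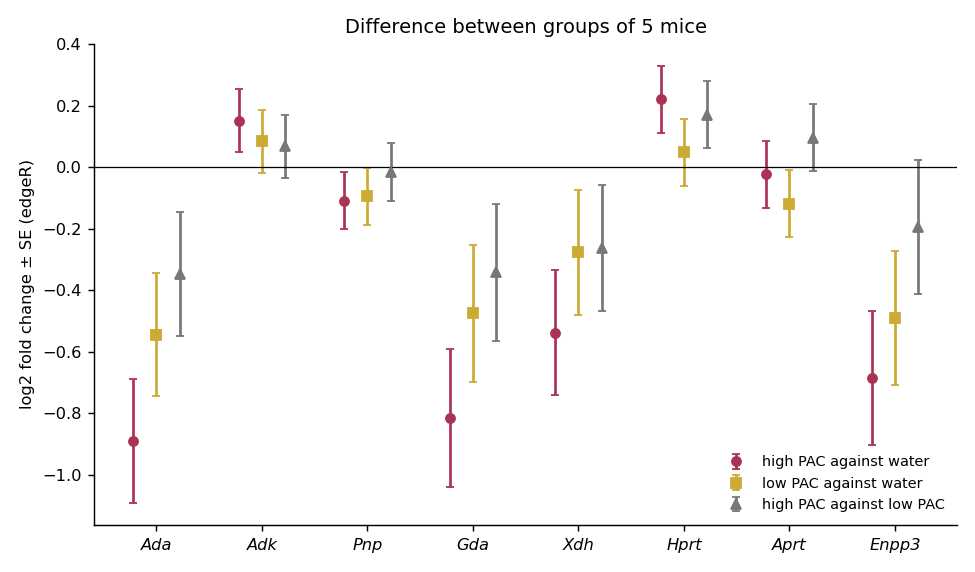
Log2 fold change of each member (vertical axis, edgeR with TMM scaling) with its SE as the bar, for high PAC against water (circles), low PAC against water (squares) and high against low PAC (triangles), 5 mice a group. Ada, Gda, Xdh and Enpp3 lie below 0 in all 3 comparisons, and Adk and Hprt lie above 0.

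The preparations of low and high molecular weight were also compared with each other at their matched dose and time, over 8 members, with p adjusted over all genes. By edgeR with TMM scaling, 5 members had a lower log2 level with high PAC and 3 a higher one, but Pnp turned from lower to higher with upper-quartile scaling and with limma on FPKM. The edgeR difference was -0.35 for Ada (95% interval -0.77 to 0.08, adjusted p = 0.896; exact permutation p = 0.135), -0.34 for Gda, -0.26 for Xdh, -0.19 for Enpp3 and 0.17 for Hprt. The intervals reached from -0.81 to 0.13 for Gda, -0.69 to 0.17 for Xdh, -0.66 to 0.27 for Enpp3 and -0.06 to 0.40 for Hprt. For Pnp, Adk and Aprt they lay within -0.21 and 0.33. These values leaned on single mice. Without high PAC replicate 3 the difference was -0.17 for Gda, -0.08 for Xdh, 0.06 for Hprt, -0.01 for Adk, 0.02 for Aprt and -0.46 for Ada (adjusted p = 0.999 for each, edgeR). Without high PAC replicate 2 it was -0.53 for Gda and -0.47 for Xdh (adjusted p = 0.841 for both, edgeR). Enpp3 ranged from -0.27 without high PAC replicate 2 to -0.11 without low PAC replicate 5. No difference between the preparations was therefore resolved, and the intervals do not exclude differences of the size seen between low PAC and water for Ada and Gda.

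Across the 15 mice, with group means subtracted from log2(FPKM + 0.1), 2 of the 28 pairs of members had a Benjamini-Hochberg adjusted permutation p under 0.05, both positive. Adk and Hprt, which both return a purine to the nucleotide pool, had a Pearson r of 0.915 (p = 5e-05, adjusted p = 0.0014, permutation test) and a Spearman rho of 0.871 (p = 6e-05, adjusted p = 0.00168, permutation test). Leaving out the 2 mice most extreme in Adk after subtraction of group means gave an r of 0.815. Without high PAC replicate 3, r was 0.826. Hprt over Adk lay between 0.98 and 1.18 in all mice. Gda and Xdh, successive enzymes on the way from guanine to urate, had r = 0.855 (p = 0.00314, adjusted p = 0.044, permutation test) and rho = 0.736 (p = 0.00543, adjusted p = 0.0612, permutation test). This pair leaned on few mice. When the 2 mice most extreme in Gda after subtraction of group means were left out, r was 0.55. Without high PAC replicate 3, r was 0.689 (adjusted permutation p = 0.173). Ada followed no other member past the threshold, and neither did Enpp3.

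**Figure D4:**
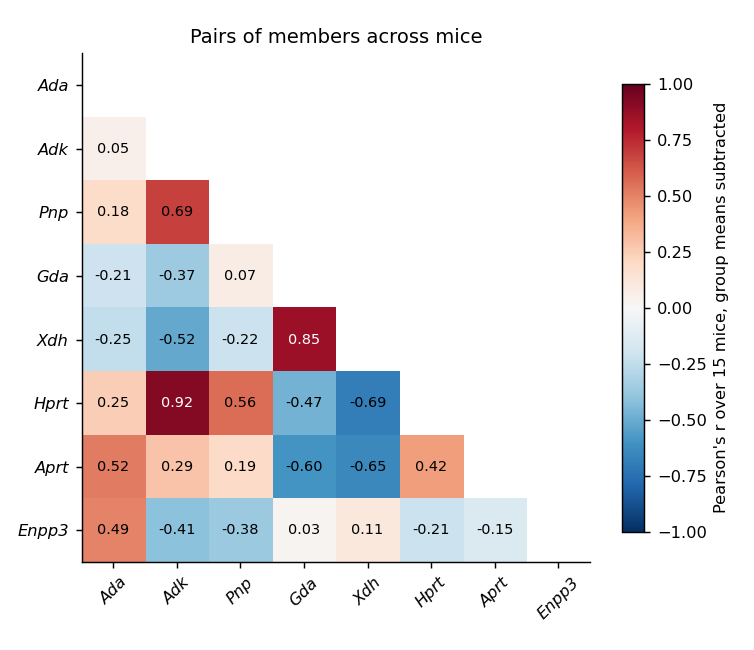
Pearson's r (colour scale from -1 to 1, values printed) of log2(FPKM + 0.1) for each of the 28 pairs of members over 15 mice after subtraction of group means. Adk with Hprt (0.915) and Gda with Xdh (0.855) are the highest values.

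Among 12429 genes that averaged 1 FPKM or more, the pattern most like that of Hprt within groups was that of Vdac3 (r = 0.981), a channel of the outer mitochondrial membrane. It was followed by Gabarapl2 (0.955), an autophagy protein of the Atg8 family, and Ube2e1 (0.953), a ubiquitin-conjugating enzyme. Hprt was the third gene in likeness to Adk (0.915), after Chmp3 (0.938) and Ppp2ca (0.917). Gda was most like Sectm1b (0.898), Tmem236 (0.891) and Znfx1 (0.886). Xdh was most like Tmem144 (0.904), Acsl5 (0.897), a long-chain acyl-CoA synthetase, and Selenop (0.897), a selenium carrier. Ada was most like Cox19 (0.869), Zcchc8 (0.853) and Kat8 (0.841). Pnp was closest to Ppp1r14d (0.92), Nfil3 (0.885) and Chmp2b (0.884), Aprt to Nr2f6 (0.914), Cdc34 (0.913) and H2afj (0.911), and Enpp3 to Adh6a (0.909), Ptgr1 (0.882) and Wdr92 (0.868). These r values over 15 mice are the highest of many and describe these mice only.

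Marker genes of other cells and of intestinal position were measured in the same libraries, and 0 of the genes tested in these lists had an adjusted edgeR p under 0.05 in any comparison. Beside each count with high PAC stand the 10.4% of all genes lower and 4.37% higher at an unadjusted edgeR p under 0.05. This split turned to more higher than lower genes under upper-quartile scaling. With low PAC, 2.21% of all genes were lower and 1.4% higher. Of 6 enterocyte markers (Alpi, Anpep, Krt20, Sis, Slc5a1 and Mgam), 6 were lower with high PAC at this level. The median log2 fold change of these markers was -0.52. Their summed level was 5590 to 7042 FPKM with water, 4943 to 6047 with low PAC and 2515 to 5579 with high PAC. Markers of the upper small intestine summed to 472.4 to 1154 FPKM with water, 203.7 to 764.4 with low PAC and 457.6 to 766.6 with high PAC, and of the 6 tested, 3 were lower with high PAC and 2 with low PAC at an unadjusted p under 0.05. Gata4 had the lowest edgeR value, -2.48 on the log2 scale (SE 0.76, adjusted p = 0.211). Of these 6 markers, 5 had a log2 fold change below 0 with high PAC and 1 had one above 0. The median of Fabp1 was 198.57 FPKM with water (129.35 to 329.33) and 278.61 with high PAC (207.9 to 527.68). General epithelial markers summed to 4002 to 4797 FPKM with water, 4062 to 4602 with low PAC and 4019 to 4358 with high PAC. With TMM scaling, all 5 had a log2 fold change below 0 with high PAC against water (median -0.17), and 2 an unadjusted p under 0.05. All 5 smooth muscle markers had a log2 fold change above 0 (median 0.42). They summed to 212.4 to 698.1 FPKM with water and 526.2 to 831.2 with high PAC. All 4 mesothelial markers also lay above 0 (median 0.93), with 0.09 to 13.56 FPKM with water and 2.73 to 17.37 with high PAC. In these lists, 0 genes had an unadjusted p under 0.05. In water replicates 1 and 3 the muscle sums were 244.9 and 212.4 FPKM and the mesothelial sums 0.09 and 0.18. The other water mice had 651.7 to 698.1 and 5.96 to 13.56 FPKM. Proliferation markers summed to 81.6 to 114.5 FPKM with water and 103.5 to 151 with high PAC, and 2 of 6 were higher at an unadjusted p under 0.05. Peyer's patch B cell markers ranged from 7.05 to 155.1 FPKM with water, 7.64 to 77.54 with low PAC and 5.71 to 231.9 with high PAC, with high and low mice in each group. Across mice within groups, 96 relations between a member and a marker sum were looked at, chosen after the values were seen. An adjusted permutation p under 0.05 was reached by 0 of them. The lowest p belonged to the ileal marker sum, with r = 0.831 for Adk (p = 0.00214, adjusted p = 0.178, permutation test). For Hprt, r was 0.631 (p = 0.00371, adjusted p = 0.178, permutation test). For Pnp, r was 0.692 (p = 0.00596, adjusted p = 0.18, permutation test). Without the 2 mice most extreme in this sum, these r values were 0.734, 0.467 and 0.646. The enterocyte sum had r = 0.736 with Gda (p = 0.0306, adjusted p = 0.316, permutation test; rho = 0.564, p = 0.0315, adjusted p = 0.391) and 0.781 with Xdh (p = 0.054, adjusted p = 0.316, permutation test; rho = 0.514, p = 0.0565, adjusted p = 0.455). When the 2 mice with the most extreme sums were left out, these r values were 0.298 and 0.195. With Ada it had r = -0.573 (p = 0.0093, adjusted p = 0.18, permutation test; rho = -0.575, p = 0.0149, adjusted p = 0.286; r = -0.594 without 2 mice). The part of these cells and of intestinal position in the levels of the members was not tested beyond these relations.

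The other genes of purine metabolism were counted by list, with the members included where they belong. Beside each count with high PAC stand the 10.4% of all genes that were lower and the 4.37% that were higher at an unadjusted p under 0.05, a split that turned to more higher than lower genes under upper-quartile scaling. The list of nucleoside and base salvage had 13 tested genes and also held the deaminases Ada and Gda. Only these 2 members were lower and 1 gene was higher with high PAC at an unadjusted edgeR p under 0.05. The median log2 fold change of the list was 0.05. The higher one was Mtap, which salvages adenine from methylthioadenosine, with an edgeR value of 0.30 on the log2 scale (adjusted p = 0.248). Among 23 nucleotidases and extracellular hydrolases, Enpp3 included, 6 were lower and 2 higher. Entpd3, at 0.45 ± 0.185 FPKM with water, had the highest log2 fold change that passed the unadjusted threshold there, at 0.71 (adjusted p = 0.234, edgeR). Of 12 tested transporter genes, 2 fell with high PAC at an adjusted p under 0.05, and these were the only such genes of all those tested. They were Slc28a2, a purine nucleoside carrier, at -1.34 (SE 0.16) from 53.2 FPKM with water to 22.5, and Slc23a4, a nucleobase transporter, at -1.05 (SE 0.13) from 12.3 to 6.33, both with an adjusted p of 0.00449 (edgeR).

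Of 10 tested genes of de novo synthesis, 3 were higher and 0 lower with high PAC at an unadjusted p under 0.05, with a median log2 fold change of 0.15. Paics, a bifunctional enzyme of the middle of this route, had the largest at 0.35 (SE 0.10, adjusted p = 0.202, edgeR). Of 17 genes that interconvert AMP, IMP and GMP, 2 were higher and 0 lower, among them Gmpr, the GMP reductase, at 0.73 (adjusted p = 0.267, edgeR). Of 4 tested genes of purine base oxidation and urate breakdown, Xdh was lower and Uox, urate oxidase, higher at 0.94 (adjusted p = 0.288, edgeR), but Uox averaged only 0.23 FPKM with water and 0.476 with high PAC. Of 3 tested adenosine receptor genes and partners, Dpp4, a brush border peptidase known to bind human adenosine deaminase, was lower at -0.48 (SE 0.17, adjusted p = 0.261, edgeR). With low PAC, 2 genes of the salvage list (Ada and Gda), 5 hydrolases and 2 transporters were lower at an unadjusted p under 0.05. At this level 2 hydrolases were higher. Of all genes, 2.21% were lower and 1.4% higher. The other lists held 0 such genes, and 0 genes of any list had an adjusted p under 0.05. Between the PAC groups the adjusted count was also 0. At an unadjusted p, 3 transporters were lower with high PAC, among them Slc28a2 at -0.50 (adjusted p = 0.896, edgeR), and 5 genes were higher over the salvage (1), interconversion (2), de novo (1) and hydrolase (1) lists (2.05% and 1.84% of all genes), among them Mtap at 0.25 and Prpsap2, a regulator of phosphoribosyl pyrophosphate supply, at 0.29 (both with an adjusted p of 0.896, edgeR).

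**Figure D5:**
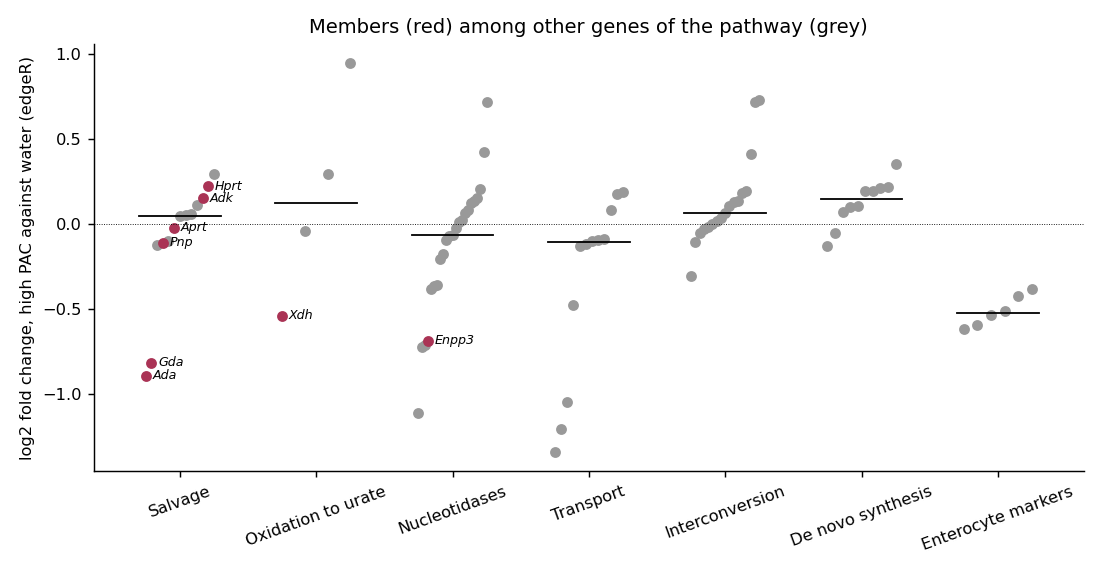
Log2 fold change of high PAC against water (vertical axis, edgeR) for each tested gene of 6 lists of purine metabolism and of the enterocyte marker list, with the members in red and named, other genes in grey, and the list's median as the line. The deaminases Ada and Gda lie lowest among the genes of the salvage list, and all 6 enterocyte markers lie below 0.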

How the data were processed

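RNA from the ileum of 15 mice, 5 each given water, low PAC or high PAC, was sequenced as paired-end reads on a BGISEQ-500. The authors removed low-quality reads with SOAPnuke and, per the study's methods, mapped the rest with Bowtie2 to mm10, whereas the submitters' processing notes name HISAT and DESeq2. The tool that counted reads is not given in the sources used here. The deposited expected counts are estimated read pairs per gene, not normalized. The deposited FPKM values were scaled by the authors to gene length and mapped fragments, and were listed from 0.01 upwards; genes missing from a file were set to 0. Totals of 15963086 to 17903886 per mouse leave little counting error at the levels of the members, so that the spread between mice sets the precision.

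Rounded counts entered a quasi-likelihood test in edgeR 4.0.16 (TMM, its filter on low counts) in R 4.3.3, in 1 model of all 15 mice, with Benjamini-Hochberg adjustment over 14386 genes. Standard errors came from the test statistic. For single genes, log2(FPKM + 0.1) was compared by exact permutation (two-sided), and pairs of members by permutation of mice within groups (100000 resamples). DESeq2 1.42.0, limma 3.58.1, NOISeq's rule (probability over 0.8, at least 2-fold) rewritten in Python 3.11.15, other scalings, no filter, 2 groups only, a replicate block and fits without each mouse were alternatives. DESeq2 leaves genes below its own count limit without an adjusted p. The fits and tests were tested on simulated data. Coordinates are from GENCODE (GRCm38), the build of mm10.

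The members, as well as the gene lists and tests, were chosen with earlier results of these data known. All 8 members are named. Another gene of a purine list is named where its adjusted p was under 0.05, or where it had the lowest or highest log2 fold change of its list with an unadjusted p under 0.05. Of each member's most similar genes, 3 are given. Markers are named to show what a list held. The mice carry numbers but no record of cages or batches, and p-values measure the spread between these animals.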

Additional observations from a re-analysis of the deposited data

Results flagged for a closer look

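High PAC replicate 3 lay far from the other 4 mice of its group in 2 members. Its Adk level was 85.57 FPKM, and the nearest of the other mice had 64.43, a gap of 0.833 of the group's range. Its Aprt level was 99.52 FPKM against 76.24 in the nearest mouse, a gap of 0.873 of the range. Both gaps exceed Dixon's 95% critical value of 0.71 for 5 values. The rule was applied to 24 combinations of member and group, and chance flags about 1 in 20. The same mouse had the lowest Gda (48.4 FPKM) and Xdh (29.1 FPKM) and the highest Hprt (101 FPKM) of all 15, together with the lowest enterocyte marker sum (2515 FPKM). Its part in the levels of the members was not tested beyond the fits without it. In those, the log2 fold changes of high PAC against water were 0.09 for Adk, -0.07 for Aprt, -0.62 for Gda, -0.33 for Xdh and 0.13 for Hprt.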

How the results depend on the processing

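Of 555 refitted log2 fold changes of members, 540 kept their direction and their side of an adjusted p of 0.05, 2 newly passed it (Ada and Gda with high PAC against water, by DESeq2) and 13 changed sign. The signs that turned belonged to small differences. Against water, Aprt with high PAC was 0.0015 with RLE size factors and with DESeq2, 0.0456 with upper-quartile scaling, 0.0114 without the filter and 0.0729 with limma on FPKM, and ranged from -0.0719 to 0.0529 without each mouse in turn. High against low PAC, Pnp was 0.0166 with upper-quartile scaling and 0.0221 with limma on FPKM, and ranged from -0.0649 to 0.0381 without each mouse, and Adk from -0.014 (without high PAC replicate 3) to 0.11. The exact permutation p, whose difference also turned sign on TMM log2 CPM, was 0.794 for this Aprt comparison and 0.833 for Pnp. The cause of these turns was not tested.

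The number of members called stayed at 0 except with DESeq2, which called 2 with high PAC, and NOISeq's rule called 0. The number of all genes called with high PAC was 136 with DESeq2, 4 with the 2 groups only and 9 with limma, and ranged from 2 to 11 without each mouse in turn. With low PAC, it was 2 with DESeq2 and ranged from 0 to 1. The number of member pairs past the threshold was 4 with group means left in, and ranged from 1 to 4 without each mouse. Adding Pnp2 to Pnp, chosen after seeing the data, changed no call.

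The replicate number did not pair the mice. After subtraction of group means, same-numbered mice correlated across genes with r between -0.317 and 0.443, and 3 of 15 correlated best with their own number. With the number as a block, 0 members were called in each comparison and 2, 0 and 0 genes with high PAC, low PAC and high against low PAC.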
